A study of Mus musculus with 6 samples.

Results

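Cardiolipin is the signature phospholipid of the mitochondrial inner membrane, and 10 genes that make it or reshape its acyl chains were followed here in mouse lung: Prelid1, Triap1, Tamm41, Pgs1, Ptpmt1, Crls1, Pla2g6, Taz, Lclat1 and Hadha. They were chosen by symbol, matched to Ensembl identifiers through the GENCODE M21 annotation, and are 10 of the 55573 genes in the deposited tables. All 10 were found and 9 had enough counts to be tested. The set matters for this series because SS-31, a mitochondria-targeted peptide, is known to bind cardiolipin. By its title, the series asks what the peptide does to smoke-driven inflammation and oxidative stress in the airways.

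Total lung RNA from wild type C57BL/6 mice of 9 to 10 weeks was sequenced in 6 libraries. The 3 CS libraries came from mice that breathed cigarette smoke for 4 weeks, 5 days a week, in 2 daily sessions of 75 min. The other 3, the SS-31H_CS libraries, came from smoke-exposed mice that also received SS-31 at 5 mg/kg, 1 dose a day. Both groups were thus smoked, and the samples analysed here hold no smoke-free lung and no SS-31 without smoke. The labels give neither sex nor batch nor hour of collection, and they do not say that each library is a separate mouse, so p-values measure only the spread between these libraries.

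Cardiolipin is built from phosphatidic acid. The PRELID1 and TRIAP1 proteins form a complex that carries phosphatidic acid across the intermembrane space, TAMM41 activates it to CDP-diacylglycerol, PGS1 makes phosphatidylglycerophosphate in the committed step, PTPMT1 removes the phosphate, and CRLS1, cardiolipin synthase, joins the product to a second CDP-diacylglycerol. Phospholipases such as PLA2G6 then remove acyl chains to give monolysocardiolipin, which tafazzin (Taz, mutated in Barth syndrome), LCLAT1 and a form of the trifunctional protein subunit HADHA acylate again. Such remodelling gives tissues their typical cardiolipin acyl pattern, and the lipid holds respiratory chain complexes and cristae in shape.

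Library totals ran from 15611925 to 17360052 counts. Values are given as CPM, counts scaled to library size with TMM factors, for comparisons of one gene between libraries. Levels of different genes are compared only as FPKM, which also divide by gene length. CS replicate 3 and SS-31H_CS replicate 3 stood apart from the other libraries. CS replicate 3 lay at -61.3 on the first principal component (46.4% of the variance) against -14.4 and -7.19 for the other CS libraries. Its median absolute log2 distance from the mean of those libraries was 0.26 over 16965 tested genes, against 0.13 between CS replicates 1 and 2. SS-31H_CS replicate 3 lay at 44.8 against 12.5 and 25.6 for its group, and at -34.4 on the second component against 8.62 and 11.5. The most abundant of 6 lung markers, Scgb1a1 of club cells and Sftpc of alveolar type 2 cells, were present at 18291 to 48062 and 11541 to 16103 CPM.

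The sequences shown first are 3 stretches outside annotated exons that lie before gene starts of the pathway. The first is the gap between Hadha and Hadhb, the genes of both trifunctional protein subunits. These lie head to head, and the whole gap is 85 bases. The other stretches lie before Crls1, the synthase, and before Pla2g6, the cardiolipin gene with the lowest p in the comparison of the groups. All are RefSeq sequence of build GRCm38.p6, written 5′ to 3′. Capitals mark matches, on either strand, to CCAAT (the CCAAT box), GGGCGG (the GC box) or CACGTG (the E-box). The NRF1 element, a longer palindromic pattern searched by name, is in none of the 3 stretches.
Hadha-Hadhb gap, chr5:30155163-30155247, plus strand: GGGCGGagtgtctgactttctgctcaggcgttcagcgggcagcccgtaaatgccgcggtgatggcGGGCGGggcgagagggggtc
Crls1 upstream, chr2:132846416-132846553, plus strand: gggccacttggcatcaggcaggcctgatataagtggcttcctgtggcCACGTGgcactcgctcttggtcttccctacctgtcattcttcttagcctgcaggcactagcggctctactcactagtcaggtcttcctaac
Pla2g6 upstream, chr15:79328391-79328621, minus strand: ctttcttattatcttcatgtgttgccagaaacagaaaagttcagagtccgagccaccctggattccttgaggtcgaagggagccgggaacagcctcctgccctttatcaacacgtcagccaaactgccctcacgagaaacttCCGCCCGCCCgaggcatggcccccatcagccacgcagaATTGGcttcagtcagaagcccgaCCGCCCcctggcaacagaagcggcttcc

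The Hadha-Hadhb gap held 2 GC boxes and was 69.4% G and C. The Crls1 stretch held 1 E-box, and the Pla2g6 stretch held 3 GC boxes, 2 of them overlapping, and 1 CCAAT box. The Crls1 stretch ends at base 132846553, where an exon of an antisense gene, Gm14104, begins. It thus stops short of the Crls1 start at base 132846666. Windows of 250 bases before to 50 after the start were in the RefSeq table for 9 of the 10 genes, Tamm41 being the exception. A GC box was in the windows of 6 of the 9 (Taz, Pgs1, Triap1, Lclat1, Pla2g6 and Hadha), against 38.2% of 27025 genes with a window. An E-box was in 2 of 9 (Crls1 and Prelid1; 8.09% of all), a CCAAT box in 2 of 9 (Lclat1 and Pla2g6; 41.1%) and the NRF1 element in 1 of 9 (Pgs1; 5.19%). A match describes letters only and shows no binding.

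Per length, the genes covered a wide range of levels. The length in these FPKM is that of all annotated exons of a gene together, from 1088 bases for Triap1 to 8730 for Hadha. Order and span therefore depend on the gene models, and 50% of the Prelid1 exon length is shared with other genes. Prelid1 was the highest, at 50.2 ± 5.79 FPKM (SD, n = 6 libraries), and Tamm41 the lowest of the 9, at 1.62 ± 0.182 FPKM, which is a 31-fold span. In between came Pgs1 (21.6 FPKM), Triap1 (18.6 FPKM), Hadha (16.7 FPKM), Taz (14.6 FPKM), Lclat1 (9.94 FPKM), Crls1 (8.19 FPKM) and Pla2g6 (4.87 FPKM). The committed-step enzyme gene Pgs1 thus stood above the synthase gene Crls1 in every library. Each gene from Pgs1 down to Lclat1 had a range over the 6 libraries that overlapped that of the next gene in the order, so neighbours there are not separated by their spread, although Taz was above Lclat1 in 6 of 6. Genes farther apart in the order could be separate, as Pgs1 (18.31 to 28.05 FPKM) was from Hadha (16.23 to 17.2 FPKM). Prelid1, Pla2g6 and Tamm41 each lay outside their neighbours' ranges. Over all tested genes the median mean level was 5.0 FPKM, and Prelid1 lay at percentile 94.4 and Tamm41 at percentile 25.2.

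**Figure D1:**
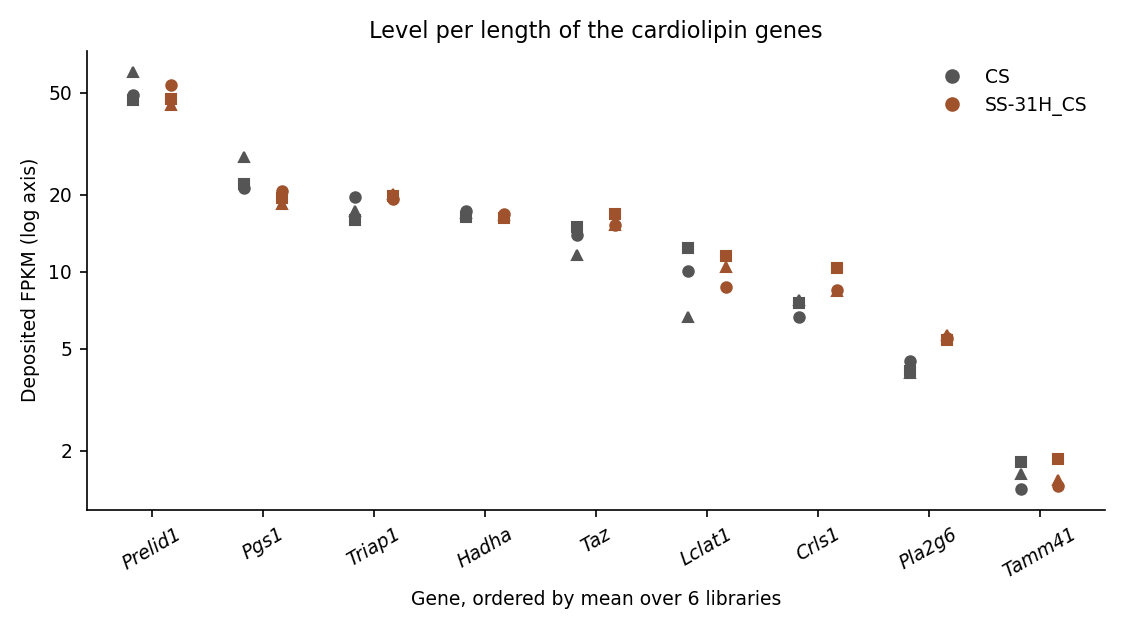
Deposited FPKM (log axis) of the 9 tested cardiolipin genes in each library, grey for CS and brown for SS-31H_CS, with circle, square and triangle for replicates 1, 2 and 3. Prelid1 (44.7 to 60.4 FPKM) lies above all others and Tamm41 (1.42 to 1.86 FPKM) below, while the ranges of neighbours from Pgs1 to Crls1 overlap.

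Ptpmt1 could not be followed. The gene for the phosphatase between PGS1 and CRLS1 (ENSMUSG00000063235, chromosome 2, 90908716 to 90918258, minus strand) was listed with 1, 0 and 4 counts in CS and 0, 0 and 0 in SS-31H_CS, so it did not enter the test and gets no fold change. Its neighbours were at the same floor. Over 160 kb, from C1qtnf4 to Rapsn, 6 genes, consecutive among protein-coding genes and Ptpmt1, had totals of 0 to 13 counts over 6 libraries. They include Ndufs3, a core complex I subunit needed by respiring cells (13 counts), and Celf1, a widely expressed RNA-binding protein (1 count). Directly outside this run, Mtch2 had 3161 counts and the proteasome gene Psmc3 had 14931. A listed 0 for Ptpmt1 therefore says nothing of its expression in the lung. The cause of the run was not tested. The annotation lists Ptpmt1 as a processed transcript, and 52.3% of its exon length overlaps Kbtbd4 and a pseudogene on the other strand.

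**Figure D2:**
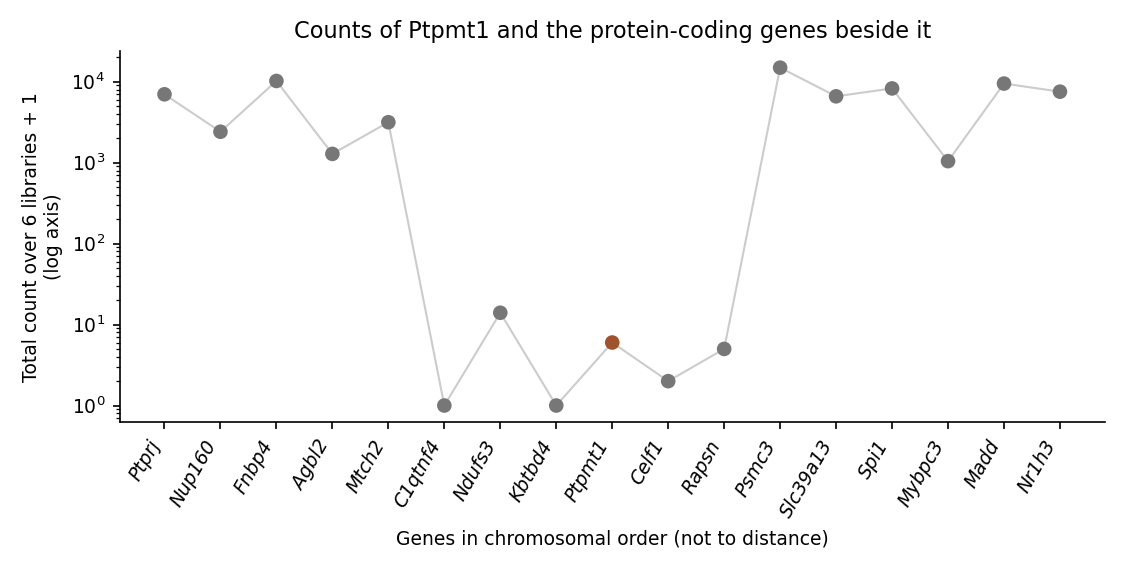
Total count over 6 libraries plus 1 (log axis) for Ptpmt1, in brown, and for the 8 protein-coding genes on each side in chromosomal order. The 6 genes from C1qtnf4 to Rapsn have 0 to 13 counts in all, between Mtch2 at 3161 and Psmc3 at 14931.

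The comparison of SS-31H_CS with CS asks whether transcripts of the cardiolipin pathway differed in smoked lungs that also received SS-31. None of the 9 tested genes passed the threshold of 0.05 on the p adjusted by Benjamini-Hochberg over 16965 genes (edgeR, quasi-likelihood), which 0.153% of all genes passed. At a threshold of 0.1 it was also 0 of 9, beside 1.76% of all genes. Adjusted p-values of the 9 ran from 0.176 to 0.956. At an unadjusted p under 0.05 there were 2 of 9, where 18.2% of all genes were called. These were Pla2g6, higher in SS-31H_CS as were 9.93% of all genes, and Pgs1, lower as were 8.23%. Neither stayed under 0.05 with every library left out: Pla2g6 did not without CS replicate 2, and Pgs1 did not when CS replicate 3 was dropped, nor on dropping replicate 2 or 3 of SS-31H_CS. Without CS replicate 3, 1 of 9 was called, beside 13.8% of all genes. DESeq2 called 0 of the 9 (5.58% of all genes) and limma voom 0 (0.0354%). The median log2 fold change of the 9 was 0.03, from -0.35 to 0.34, beside a median of 0.01 and quartiles of -0.19 and 0.25 over all genes tested. The unadjusted 95% intervals of all 9 lay between -0.68 and 0.59, so that changes outside 0.624-fold to 1.51-fold were outside the interval of every gene. In lung RNA, fewer cells of a type and less RNA per cell cannot be told apart.

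In 4 of the 9 genes every SS-31H_CS library lay on the same side of every CS library, which held for 26.1% of all tested genes. Of these 4, Pla2g6, Crls1 and Taz were higher in SS-31H_CS (3 of 9, beside 13.6% of all genes) and Pgs1 was lower (1 of 9, beside 12.4%). With any 1 library left out the number was 4 or 5 of 9, beside 33.1% to 41.7% of all genes.

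**Figure D3:**
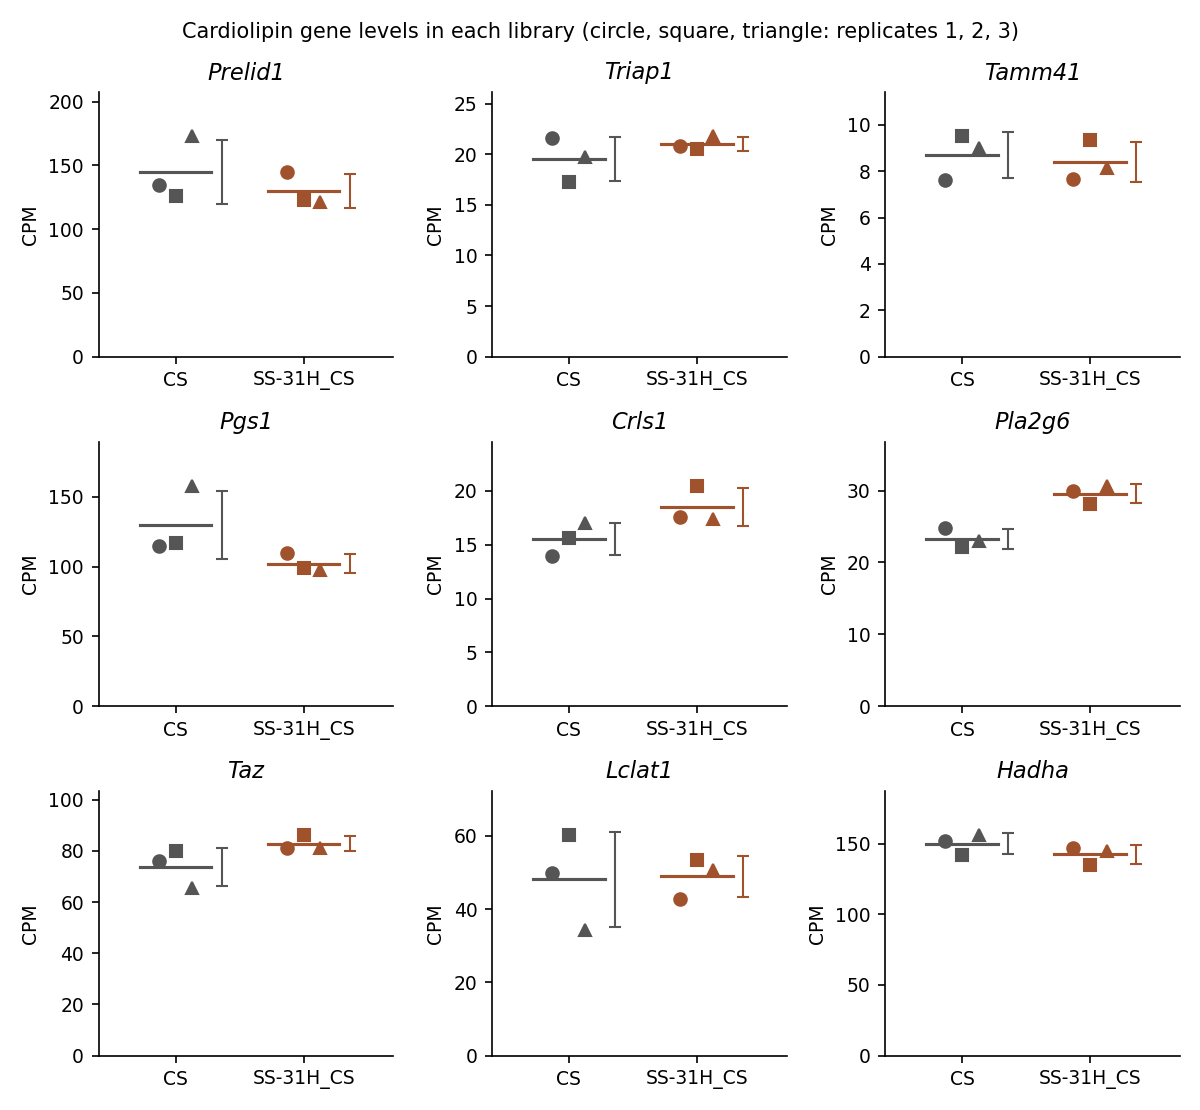
CPM of the 9 tested cardiolipin genes in each library (circle, square and triangle for replicates 1, 2 and 3), with the group mean as a line and the SD (n = 3 libraries per group) as the bar beside it. Pla2g6, Crls1 and Taz lie higher in all 3 SS-31H_CS libraries than in any CS library, Pgs1 lies lower, and the groups overlap in the other 5.

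The carriers of phosphatidic acid come first in the pathway. Prelid1 (ENSMUSG00000021486, chromosome 13, 55320500 to 55325272) was measured in CS at 135, 126 and 173 CPM and in SS-31H_CS at 145, 123 and 121 CPM, in the order of replicates 1, 2 and 3 as in all such lists here. The groups overlapped, and CS replicate 3 was the highest of the 6. The log2 difference between the groups was -0.16 (SE 0.15, adjusted p = 0.591 by edgeR), and -0.01 without CS replicate 3. Exons of Rab24 and Mxd3 on the other strand cover 50% of the Prelid1 exon length, and the strand setting of the counting is not given in the sources used here, so reads from these genes cannot be told apart. Triap1, the small partner of PRELID1 in the complex (ENSMUSG00000029535, chromosome 5, 115341225 to 115343569), was at 21.6, 17.3 and 19.7 CPM in CS and 20.8, 20.5 and 21.8 CPM in SS-31H_CS. Its groups overlapped as well (log2 fold change 0.11, SE 0.13, adjusted p = 0.686).

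The ratio of Prelid1 to Triap1 within a library needs no scaling between libraries. It was 2.5, 2.92 and 3.51 in CS and 2.78, 2.39 and 2.23 in SS-31H_CS, in FPKM. The groups overlapped, and the log2 ratio was 0.26 smaller in SS-31H_CS (log2 difference -0.26, exact permutation p = 0.2, two-sided, adjusted p = 0.5 over 3 ratios). It was -0.14 without CS replicate 3 and -0.38 without CS replicate 1. With 3 libraries against 3 the smallest possible exact p is 0.1.

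Tamm41, the mitochondrial CDP-diacylglycerol synthase gene (ENSMUSG00000030316, chromosome 6, 115004381 to 115037876), rested on 129 to 166 counts per library. It was at 7.61, 9.51 and 9.01 CPM in CS and 7.68, 9.35 and 8.12 CPM in SS-31H_CS. Both groups spanned nearly the same range, with a log2 fold change of -0.06 (SE 0.18, 95% interval -0.47 to 0.35, adjusted p = 0.889).

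Pgs1, the gene of the committed step (ENSMUSG00000017715, chromosome 11, 117986292 to 118024011), was at 115, 117 and 158 CPM in CS and 110, 98.9 and 97.3 CPM in SS-31H_CS. All SS-31H_CS libraries lay below all CS libraries, but CS replicates 1 and 2 were close to SS-31H_CS replicate 1, and the high CS mean came from replicate 3. The log2 fold change was -0.35 (SE 0.15, 95% interval -0.68 to -0.01, unadjusted p = 0.044, adjusted p = 0.262). Without CS replicate 3 it was -0.19 (adjusted p = 0.481).

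Crls1, cardiolipin synthase (ENSMUSG00000027357, chromosome 2, 132846666 to 132866785), whose upstream stretch is printed above, was at 14.0, 15.6 and 17 CPM in CS and 17.6, 20.5 and 17.4 CPM in SS-31H_CS. The SS-31H_CS libraries were higher, with a gap of less than 1 CPM between the nearest libraries of the groups. The log2 fold change was 0.25 (SE 0.14, 95% interval -0.08 to 0.58, adjusted p = 0.399). CS replicate 3 was the CS library nearest to the SS-31H_CS values, and without it the log2 fold change was 0.31 (adjusted p = 0.411). Among the 10854 genes whose mean CPM was 10 or more, those whose log2 CPM followed Crls1 most closely over the 6 libraries were Gpm6a (Pearson r = 0.966), Fam241a (0.959) and Med30 (0.958). With 6 libraries that share their group structure, these r values describe the libraries only.

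Because Pgs1 was lower and Crls1 higher, the ratio of the committed-step gene to the synthase gene was also formed, a ratio chosen after the values were seen and given without a test. In FPKM it was 3.19, 2.92 and 3.61 in CS and 2.45, 1.89 and 2.18 in SS-31H_CS. The mean log2 ratios were 1.69 and 1.11. The groups did not overlap, but this was fixed in advance. Each gene alone already separated the groups, in opposite directions, so the ratio adds no further evidence.

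Remodelling starts with the removal of an acyl chain. Pla2g6, a calcium-independent phospholipase that is not confined to mitochondria (ENSMUSG00000042632, chromosome 15, 79286228 to 79328390), was at 24.8, 22.1 and 23.0 CPM in CS and 29.9, 28.1 and 30.7 CPM in SS-31H_CS. Of the 9 genes it had the lowest p, and its groups were apart by more than the range within either. The log2 fold change was 0.34 (1.27-fold, SE 0.11, 95% interval 0.09 to 0.59, unadjusted p = 0.0133). It did not pass over all genes (adjusted p = 0.176, and 0.138 to 0.413 over the alternatives). CS replicate 3 lay within the other CS libraries here, and the value was 0.33 without it and 0.31 without SS-31H_CS replicate 3.

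Taz, tafazzin (ENSMUSG00000009995, chromosome X, 74281912 to 74290151), was at 76.1, 79.8 and 65.6 CPM in CS and 81.3, 86.2 and 81.2 CPM in SS-31H_CS. The SS-31H_CS libraries were higher, with CS replicate 2 less than 2 CPM below them and CS replicate 3 lowest. The log2 fold change was 0.17 (SE 0.11, 95% interval -0.08 to 0.42, adjusted p = 0.447), and 0.08 without CS replicate 3. The genes most like Taz over the 6 libraries were Mef2c (Pearson r = 0.996), Rasgrp1 (0.993) and Gimap3 (0.992), and 154 of the 10854 genes had an r above 0.95.

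Lclat1, an acyltransferase of the endoplasmic reticulum and its contacts with mitochondria (ENSMUSG00000054469, chromosome 17, 73107985 to 73243368), varied most within the groups. It was at 49.8, 60.2 and 34.3 CPM in CS and 42.7, 53.5 and 50.7 CPM in SS-31H_CS, a coefficient of variation of 27.1% and 11.4%. The groups overlapped entirely (log2 fold change 0.03, SE 0.20, adjusted p = 0.956), and the sign turned without CS replicate 3 (-0.17). The ratio of Taz to Lclat1, the acyltransferase genes side by side, was 1.39, 1.21 and 1.75 in CS and 1.74, 1.47 and 1.46 in SS-31H_CS, in FPKM. These overlapped too (log2 difference 0.11, exact permutation p = 0.5, two-sided, adjusted p = 0.5).

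Hadha, the alpha subunit of the trifunctional protein of fatty acid oxidation (ENSMUSG00000025745, chromosome 5, 30118304 to 30155162), varied least in CS. It was at 152, 142 and 156 CPM in CS and 147, 135 and 145 CPM in SS-31H_CS, with coefficients of variation of 4.85% and 4.35%. The log2 fold change was -0.08 (SE 0.10, 95% interval -0.31 to 0.15, adjusted p = 0.703). Hadhb, the beta subunit gene on the other side of the 85-base gap printed above, was at 22.0, 21.4 and 22.5 CPM in CS and 20.2, 23.9 and 23.0 CPM in SS-31H_CS (0.03, SE 0.12, adjusted p = 0.922). Hadhb was listed at only 3.07 to 3.8 FPKM, and the reason was not tested. Its annotated exons span 6595 bases together and those of Hadha 8730, so a ratio per length depends on these gene models. Per length, Hadha stood 4.27 to 5.49 times above Hadhb in the 6 libraries. That ratio overlapped between the groups (log2 difference -0.10, exact permutation p = 0.4, two-sided, adjusted p = 0.5), and the difference ran from -0.20 to -0.01 with single libraries left out.

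**Figure D4:**
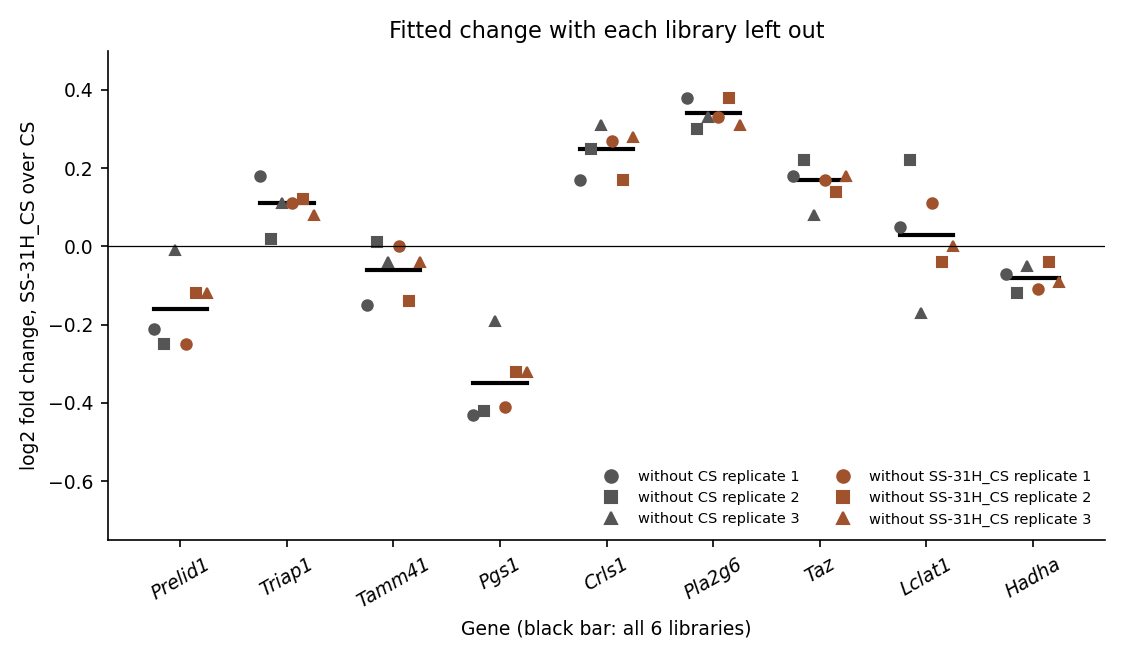
Log2 fold change (SS-31H_CS over CS) of the 9 tested cardiolipin genes with all 6 libraries (black bar) and with each library left out in turn (grey for CS, brown for SS-31H_CS). Leaving out CS replicate 3 moves Pgs1 from -0.35 to -0.19, Prelid1 from -0.16 to -0.01 and Lclat1 from 0.03 to -0.17, while Pla2g6 stays at 0.33.

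Several cardiolipin genes differed more between CS replicate 3 and the other CS libraries than between the groups. Against the mean of CS replicates 1 and 2, CS replicate 3 was 0.44 higher on the log2 scale for Pgs1 and 0.41 higher for Prelid1. It was -0.67 for Lclat1 and -0.25 for Taz, while Pla2g6 (-0.03), Triap1 (0.03), Hadha (0.08) and Tamm41 (0.08) were close to 0. Over the 6 libraries the log2 CPM of Taz and Pgs1 had a Pearson r of -0.95, and Prelid1 and Lclat1 one of -0.92, both with CS replicate 3 as an end point. Lymphocyte markers were low in that library, with a summed level of 38.3 CPM against 129 and 181 CPM in the other CS libraries and 182 to 214 CPM in SS-31H_CS. Of these 6 markers 6 had a higher mean in SS-31H_CS. At an unadjusted p under 0.05 there were 0 (18.2% of all genes), and 0 passed over all genes (0 by DESeq2). Cd79a, a B cell gene and the most abundant of them, was at 12.1 CPM in CS replicate 3. Erythroid markers were also low there (191 CPM against 718 and 772 CPM in the other CS libraries and 820 to 943 CPM in SS-31H_CS). The summed groups did not overlap. Of these 6 markers 6 had a higher mean in SS-31H_CS, 3 of them without overlap (13.6% of all genes). At an unadjusted p under 0.05 there was 1 (18.2% of all genes), and 0 passed over all genes (0 by DESeq2). The part of these cells in the values of Taz, Lclat1, Pgs1 and Prelid1 was not tested.

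Some other cell markers also differed between the groups. As a baseline for the counts below, 9.93% of all tested genes were higher and 8.23% lower at an unadjusted p under 0.05 by edgeR. At an adjusted p under 0.05, edgeR called 0.153% of all genes and DESeq2 5.58%. Of the 6 lung markers, 1 was higher and 2 were lower at an unadjusted p under 0.05, 0 passed over all genes by edgeR and 1 by DESeq2. Scgb1a1 was at 23014, 18984 and 18291 CPM in CS and 29357, 21245 and 48062 CPM in SS-31H_CS (log2 fold change 0.71, adjusted p = 0.27 by edgeR). The endothelial genes Pecam1 and Cldn5, named after their values were seen, had groups that did not overlap. Pecam1 was at 981 ± 136 and 687 ± 85.4 CPM (SD, n = 3 per group; -0.51, adjusted p = 0.163 by edgeR and 0.0303 by DESeq2), and Cldn5 at 549 ± 4.73 and 427 ± 51.7 CPM (SD, n = 3 per group; -0.36, adjusted p = 0.202 by edgeR). The summed level of 6 ciliated cell markers was 388 to 556 CPM in CS and 728 to 1062 CPM in SS-31H_CS, all 6 at an unadjusted p under 0.05 and 0 over all genes by edgeR (5 by DESeq2). Log2 fold changes of these 6 ran from 0.57 to 1.31. Foxj1, the regulator of motile cilia, was at the upper end (1.31, adjusted p = 0.0728 by edgeR). Its levels were 60.5 ± 7.67 and 150 ± 44.8 CPM (SD, n = 3 per group). The 6 alveolar macrophage markers summed to 1393 to 1813 CPM in CS and 562 to 934 CPM in SS-31H_CS, 4 of the 6 lower at an unadjusted p under 0.05 and 0 over all genes by edgeR (3 by DESeq2). Chil3, their most abundant gene, was at 1417 ± 204 and 634 ± 186 CPM and made up most of the sums (means 1604 and 770 CPM). Pparg and Ear2, also named after their values were seen, overlapped between the groups (log2 fold changes -0.21 and -0.06, adjusted p = 0.585 and 0.873 by edgeR). Cardiac muscle markers summed to 213 to 619 CPM in CS and 316 to 809 CPM in SS-31H_CS and overlapped. Of the 6, 6 had a higher mean in SS-31H_CS and 0 were at an unadjusted p under 0.05 (18.2% of all genes). Mitochondria-rich muscle around pulmonary veins expresses them, but the source of these transcripts was not tested. Adipocyte markers overlapped as well (29.2 to 37.7 and 29.4 to 39.4 CPM). No marker was under 3 counts in all 6 libraries. The part of these cells in the cardiolipin values was not tested.

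The mitochondrial content list held 8 genes of mitochondrial enzymes and channels, whose transcripts do not measure the amount of mitochondria. Their sum was 1062 to 1178 CPM in CS and 983 to 1127 CPM in SS-31H_CS and overlapped. Of the 8, 0 passed over all genes (0 by DESeq2) and 2 were lower at an unadjusted p under 0.05, as were 8.23% of all genes. Citrate synthase, Cs, was at 166, 164 and 196 CPM in CS and 150, 134 and 150 CPM in SS-31H_CS (log2 fold change -0.28, SE 0.12, adjusted p = 0.258). Its groups did not overlap. The ATP synthase gene Atp5a1 was listed at only 1.89 to 3.67 FPKM (log2 fold change of counts -0.57, adjusted p = 0.217), and the complex III gene Uqcrc1, named after its values were seen, at 0.41 to 1.55 FPKM, against 194.5 to 250.7 FPKM for the complex IV gene Cox4i1. Why these genes were listed so low was not tested.

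Around the cardiolipin genes, 24 further genes of phospholipid supply, turnover and transfer were taken from 3 lists, and 22 of them could be tested. Of the 22, 0 rose and 0 fell over all genes by edgeR's test (0 by DESeq2). At an unadjusted p under 0.05, 1 was higher (9.93% of all genes) and 3 were lower (8.23%). The groups did not overlap in 9, beside 26.1% of all genes, and 7 of these were lower in SS-31H_CS, beside 12.4%. The median log2 fold change of the 22 was -0.12, against 0.01 over all genes.

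In the supply of phosphatidic acid and CDP-diacylglycerol, 2 of 9 genes were lower at an unadjusted p under 0.05 (8.23% of all genes), with a list median of -0.17 (0.01 over all genes). Agpat4, a lysophosphatidic acid acyltransferase gene, was at 57.7, 55.9 and 67.1 CPM in CS and 53.6, 47.1 and 44.0 CPM in SS-31H_CS (-0.32, SE 0.12, adjusted p = 0.226). Agpat3, of the same family, was at 143, 151 and 206 CPM in CS and 141, 120 and 125 CPM in SS-31H_CS (-0.37, adjusted p = 0.262). In both genes CS replicate 3 was the highest library, as it was for Pgs1, and without it Agpat3 was at -0.20 and Agpat4 at -0.24.

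Among genes of cardiolipin turnover, transfer and scaffolds, 1 of 9 tested was at an unadjusted p under 0.05, where 18.2% of all genes were (list median -0.07). This was Nme4, whose product can carry cardiolipin between the mitochondrial membranes, at 1.48, 1.2 and 0.988 CPM in CS and 1.89, 2.14 and 2.00 CPM in SS-31H_CS. The groups did not overlap, but the gene rested on 16 to 35 counts per library, and its interval was wide (0.71, 95% interval 0.04 to 1.38, adjusted p = 0.254). Phb, a prohibitin that scaffolds the inner membrane, was at 41.9 ± 5.26 and 36.7 ± 1.13 CPM (SD, n = 3 per group; -0.19, adjusted p = 0.415), and at -0.09 without CS replicate 3. Pld6, a mitochondrial phospholipase gene that can use cardiolipin, had 4 to 17 counts and was not tested.

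Of 4 tested genes of mitochondrial phosphatidylethanolamine and lipid transfer, Prelid3b, a PRELID1 relative that carries phosphatidylserine with TRIAP1, had the lowest p. It was at 36.7, 38.6 and 59.5 CPM in CS and 30.3, 29.8 and 34.6 CPM in SS-31H_CS (-0.51, SE 0.19, adjusted p = 0.225), and at -0.26 without CS replicate 3. Stard7, a phosphatidylcholine carrier, was at 75.4 ± 3.38 and 67.5 ± 3 CPM (SD, n = 3 per group; -0.16, adjusted p = 0.406).

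**Figure D5:**
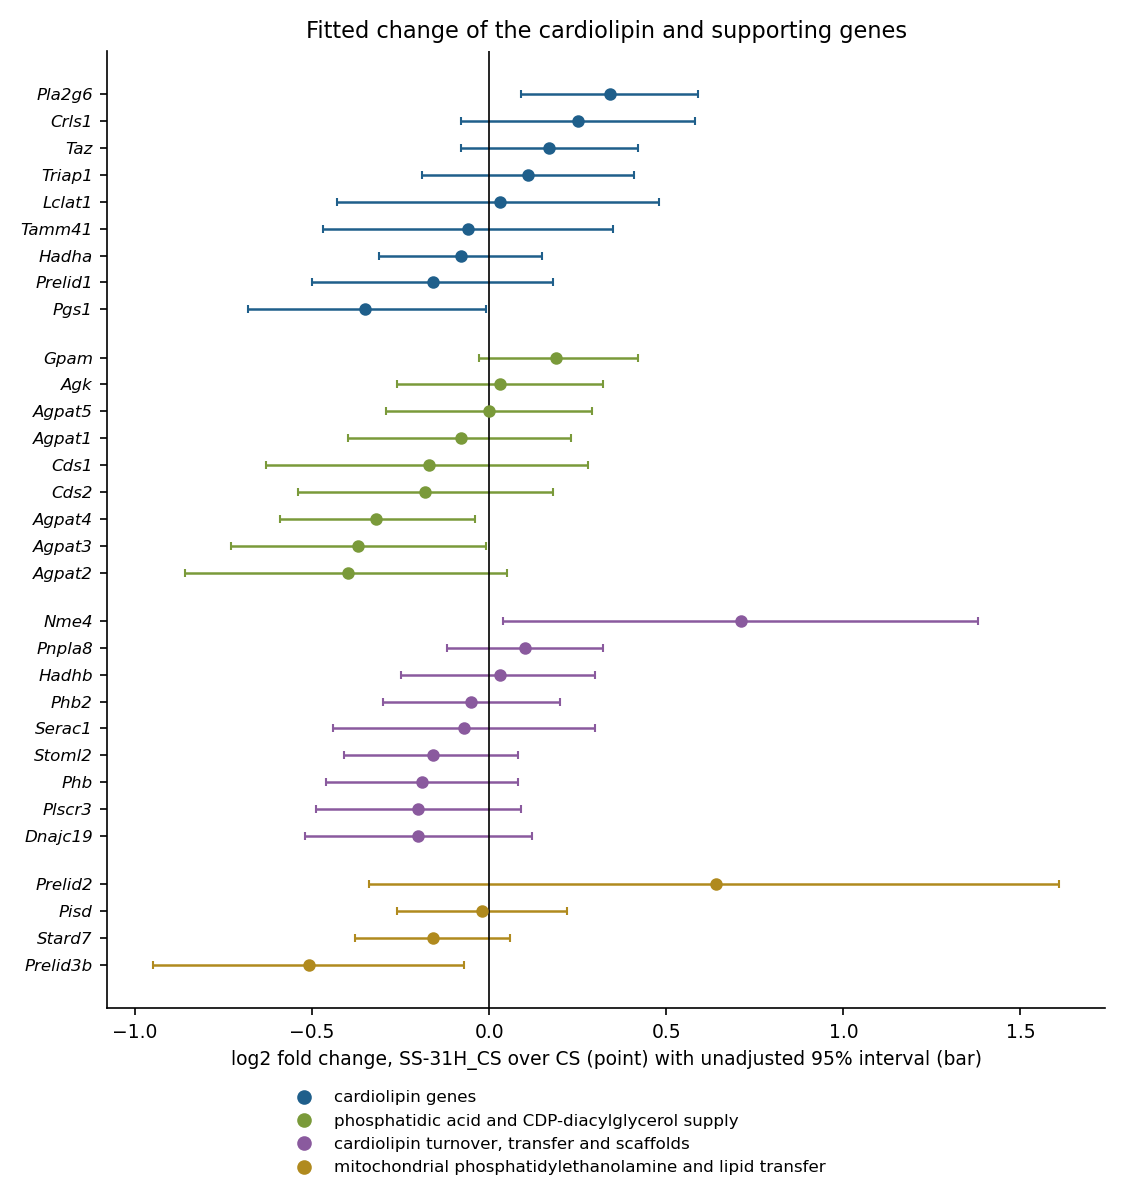
Log2 fold change (SS-31H_CS over CS) with its unadjusted 95% interval for the 9 tested cardiolipin genes and 22 supporting genes, coloured by list. The cardiolipin intervals lie between -0.68 and 0.59, and only those of Pla2g6 and Pgs1 leave out 0, while Nme4 reaches from 0.04 to 1.38.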

How the data were processed

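For each Ensembl gene the authors deposited a raw count and an FPKM value in the 6 lung libraries. Per the submitters' processing notes, cutadapt 1.9.1, HISAT2 2.0.1, HTSeq 0.6.1 and GRCm38 were used. Annotation release, strand setting and filters are not given in the sources used here. Lengths implied by the deposited FPKM and counts fell within 1% of GENCODE M21 exon lengths for 3282 of 3309 genes with over 1000 counts in every library and for 9 of 9 tested cardiolipin genes.

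Counts were tested with edgeR 4.0.16 (R 4.3.3): TMM scaling, its low-count filter (minimum count 10, minimum total 15), the quasi-likelihood test, two-sided, Benjamini-Hochberg over 16965 genes, threshold 0.05. SEs are the log2 fold change over the root of the quasi-likelihood F, and intervals, unadjusted, use its degrees of freedom. Ratios within libraries used an exact permutation test (scipy 1.17.1). Alternatives: RLE or no scaling, other filters, DESeq2 1.42.0, limma 3.58.1 (voom, and trend on log2(FPKM + 1) or log2(FPKM + 0.1)), a replicate block, an adjusted p under 0.1 and each library left out. Leaving out libraries for the count of genes whose groups do not overlap was added later.

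The genes and lists were chosen with earlier results of these data known. Named besides the cardiolipin genes are the 2 lowest p in each pathway list and the mitochondrial list, the 2 most abundant genes of marker lists and the 3 genes most like Crls1 and Taz. A gene that this rule also names is not reported here.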

Additional observations from a re-analysis of the deposited data

How the results depend on the processing

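The number of cardiolipin genes past the threshold was 0 in every alternative run, as was that of the 22 supporting genes, with all 6 libraries and with each left out. These counts show little: with a library left out only 1 to 15 of all genes were called, and in the limma fits 4 to 6, while DESeq2 called 941 and edgeR without its low-count filter 648 of 29410. The median log2 fold change of the 9 cardiolipin genes, 0.03, was 0.08 by library size alone, 0.10 on log2(FPKM + 1) and -0.04 to 0.11 with single libraries left out. The median over all genes, 0.01, moved as well. It was 0.07 by library size alone and 0.04 or 0.02 on log2(FPKM + 1), with or without a filter on low values. With single libraries left out it was 0.00 to 0.02. Of 144 single-gene values for the 9 genes under the alternatives, 136 kept their direction and 8 turned, in 2 genes with a change near 0. Tamm41 (-0.06) was at 0.00 by library size alone and in the 3 FPKM fits, and ran from -0.15 to 0.01 with single libraries left out. Lclat1 (0.03) ran from -0.17 (without CS replicate 3) to 0.22 (without CS replicate 2) and was also below 0 on leaving out SS-31H_CS replicate 2 (-0.04) or 3 (-0.00). The log2 difference of the Taz to Lclat1 ratio, 0.11, ran from -0.01 (without CS replicate 2) to 0.26. Deviations of same-numbered libraries from their group means correlated at 0.00721, 0.0363 and -0.0571. Such values cannot exclude that the replicate numbers pair libraries, as each group has only 3. With the number as a replicate block, 0 of all 16965 genes were called, so the 0 cardiolipin and 0 supporting genes there carry no information, and the median was 0.06. Of the cardiolipin genes tested, Tamm41 (129 to 166 counts) is limited most by depth, and of the supporting genes Prelid2 (6 to 14 counts).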
